A study of Mus musculus with 4 samples.

Results

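A set of 9 genes of the vessel wall were examined for accessible chromatin in endothelial and non-endothelial nuclei of the mouse heart. Vwf, Thbd, Procr, F8, Plat and Tfpi act in haemostasis, and Selp, Sele and Vcam1 capture leukocytes from the blood. The 9 genes were chosen by name, out of 21755 protein-coding genes of the annotation, and all 9 were found in it.

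The NuTRAP/Cdh5-Cre mice carry a reporter that Cre recombinase switches on, and here Cre is driven by Cdh5, the gene of VE-cadherin, so that nuclei of cells of endothelial descent carry GFP. Whole hearts came from male C57BL/6 animals aged 8 to 12 weeks, and both groups came from mice of this genotype without further treatment. GFP+ nuclei (endothelial) and GFP- nuclei (non-endothelial heart cells) were separated by flow cytometry, with 2 ATAC-Seq libraries of each, or 4 in all. Per the study's methods, only single nuclei that were not dividing, chosen by their DNA content, were sorted, so neither group holds every nucleus of its kind. In ATAC-Seq, the transposase Tn5 cuts accessible DNA and attaches sequencing adapters to it, so that reads pile up at open chromatin. Reporter mice of this kind label a lineage, so cells whose ancestors once expressed Cdh5 also carry GFP.

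For each group the authors deposited a list of peaks, called from both libraries together. No value per library is given, so the comparisons below have no replicate error and no test, and the lists do not give the reads behind a peak. All libraries had been downsampled by the authors to a common number of reads before calling. The GFP- list held 78912 peaks and the GFP+ list 65008. Because the lists were called separately, peaks were compared by their rank in their own list, a percentile by area (the signal summed over the length of the peak), where 100 is the largest peak of a list, and 0 stands for no peak. A start peak overlaps the stretch of 250 bp on either side of an annotated transcript start of the gene, and a gene's start rank is that of its highest start peak. A locus is the gene with 50 kb on each side, and a peak is shared where it overlaps a peak of the other list by at least 1 bp. A difference of over 20 rank points was counted as higher or lower. Distances are given from the 5′ end of the gene in the direction of transcription, with negative values upstream.

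The labelled populations differed most at the endothelial, fibroblast, and pericyte and smooth muscle marker lists, and less at the others. All 6 endothelial marker genes (Cdh5, Pecam1, Erg, Tie1, Egfl7, Emcn) had a start peak in the GFP+ list, at ranks of 57.5 to 98.7, against 3 in the GFP- list, and all 6 were higher in GFP+ by over 20 points, with a median difference of 59.6. All 4 cardiomyocyte markers (Myh6, Tnnt2, Ryr2, Actn2) had start peaks in both lists, at ranks of 90.2 to 100.0 in GFP- and 86.0 to 100.0 in GFP+. Fibroblast markers had start peaks for 4 of 4 genes in GFP- and 2 in GFP+, and 2 were lower in GFP+ by over 20 points. Those with a GFP+ peak were Pdgfra, at 96.5 in GFP- and 87.0 in GFP+, and Col1a1, at 95.6 and 80.7. Pericyte and smooth muscle markers had start peaks for 6 of 6 genes in GFP- and 3 in GFP+, and 3 were lower by over 20 points. Those with a GFP+ peak were Cspg4 (85.6 and 76.1), Kcnj8 (83.4 and 49.1) and Myh11 (73.7 and 60.3). Of 4 leukocyte markers, Ptprc, Csf1r and Cd79a had no start peak in either list, and Cd68 ranked 31.8 in GFP- and 16.8 in GFP+. Of 4 megakaryocyte and platelet markers, Gp9 and Gp1ba had none in either list, Itga2b ranked 97.3 and 93.3, and Pf4 61.4 and 63.0. Markers of endocardial and lymphatic endothelium (Npr3, Prox1, Lyve1, Flt4) had start peaks for 4 of 4 genes in both lists, with a median difference of -0.18, and of these Flt4 alone was higher in GFP+ by over 20 points, at 58.8 and 83.3. The part that other cell types take in the values below was not tested.

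Endothelium keeps blood fluid at rest and turns to clotting and leukocyte capture on injury. Thrombomodulin and the endothelial protein C receptor on its surface help to activate the anticoagulant protein C, tissue factor pathway inhibitor blocks the start of coagulation, and tissue plasminogen activator dissolves clots. Von Willebrand factor and P-selectin are stored together in Weibel-Palade bodies, from where they are released within minutes, whereas E-selectin and VCAM-1 are made after stimulation by inflammatory cytokines, through NF-kB. In many organs von Willebrand factor and P-selectin are more abundant in veins than in capillaries.

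In each list 7 of the 9 genes had a start peak, and they were the same 7 genes, namely all but Selp and Sele. Of all protein-coding genes, 61.8% had a start peak in the GFP- list and 59.8% in the GFP+ list. Selp and Sele had no start peak in either list, as did 37.3% of all genes. None of the 7 genes was higher or lower by over 20 points at its start, against 1.94% of all genes with a start peak that were higher in GFP+ and 7.33% that were lower. The difference, GFP+ minus GFP-, ran from -19.4 to 2.14 points with a median of -3.81, and 5 of the 7 genes were lower in GFP+. With peaks ranked by area per bp instead, the median turned to 0.52 points, and Plat and Tfpi were higher in GFP+, by 9.16 and 8.88 points. Over all 13643 genes with a start peak in either list the median difference was -0.81. The starts of the 7 genes also ranked below those of genes at large, with medians of 71.2 in GFP- and 69.2 in GFP+ against 90.3 and 88.6. Both medians of the 7 genes are the ranks of Vwf, whose peak lies 56.6 kb into the gene, at a processed transcript. With 7 genes and no replicates, these medians are descriptions.

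**Figure D1:**
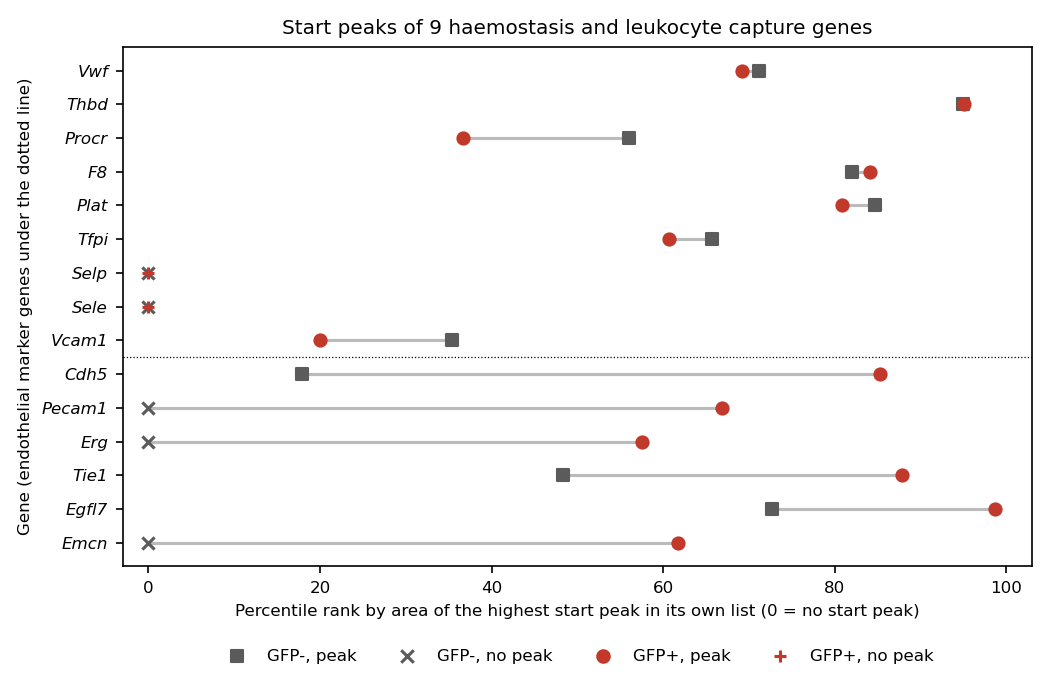
Rank of the highest start peak of each gene in its own list, for the 9 genes and, under the dotted line, the 6 endothelial marker genes. The x axis is the percentile rank by area, squares or crosses stand for GFP- and circles or plus signs for GFP+, and a gene without a start peak lies at 0. The pairs of the 9 genes lie close together or favour GFP-, from -19.4 to 2.14 points, whereas all 6 markers are higher in GFP+.

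Vwf encodes von Willebrand factor, which tethers platelets to exposed matrix and carries factor VIII. Its gene (ENSMUSG00000001930.17, chr6:125546774-125686679 on GRCm38, plus strand) has 10 distinct annotated transcript starts. The 5′ end of the gene, the start of Vwf-201, had no peak in either list, so that by 5′ ends alone 6 of the 9 genes had a start peak in each list. The start peak behind its ranks of 71.2 in GFP- and 69.2 in GFP+ lay 56.6 kb into the gene, at the start of a processed transcript (Vwf-206), and measured 645 bp in GFP- and 697 bp in GFP+. A second start peak, at the protein-coding transcripts Vwf-202 and Vwf-203 some 6.09 kb into the gene, was found only in the GFP+ list, at a rank of 7.77 and a length of 249 bp. It was the only GFP+ only start peak of the 9 genes, and it lay near the lower limit of its list.

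By count, Vwf held the most differences outside its starts among the 9 genes, and its locus also held the most regions of merged peaks. Its locus had 10 GFP- peaks, 2 of them GFP- only, and 16 GFP+ peaks, 6 of them GFP+ only. The highest GFP+ only peak of all 9 loci lay at -17.1 kb (chr6:125529493-125529946), at a rank of 67.7, with nothing called there in the GFP- list. Intronic GFP+ only peaks followed at 50.4 kb, with a rank of 40.5, and at 75.8 kb, with a rank of 23.5, and the remaining 2 at -13.5 kb and -11.7 kb ranked 15.3 and 8.37. A shared upstream region at -33.6 kb ranked 35.3 in GFP- and 60.9 in GFP+, and its neighbour at -31.1 kb ranked 52.2 and 67.8, so that both upstream regions were larger within the GFP+ list. Both lie nearer to another gene, Cd9.

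Inside the gene the regions differed in both directions. The largest peak of the locus was a GFP- peak of 2157 bp in an intron at 26.6 kb, at a rank of 89.0. The GFP+ list split the same stretch into 3 peaks, the highest of which ranked 58.6. A further intron at 31.8 kb had a GFP- only peak of rank 68.0. Far upstream, a GFP- only peak at -48.5 kb ranked 46.7. Of 16 regions of the Vwf locus, after merging overlapping peaks of both lists, 4 were higher in GFP+ by over 20 points, 3 were lower, and 9 lay between. Among the 3 lower is the stretch that the GFP+ list split, where the region took the rank of its highest GFP+ peak alone. The share past 20 points was close to that at Thbd, with 3 regions higher and 2 lower of 12, and at F8, with 2 lower of 5.

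The sequences of the -17.1 kb peak and of the start peak at 6.09 kb are shown because they are the highest GFP+ only peak and the sole GFP+ only start peak of the 9 genes. They were read from GRCm38.p6 on the plus strand, at chr6:125529624-125529823, 200 bp around the summit, and at chr6:125552767-125552947, cut before the transcript. Capitals mark words of transcription factor families on either strand: AGGAAG for ETS factors in both windows (here on the opposite strand, CTTCCT) and ACAATG for SOX factors in the start peak alone (CATTGT).
Vwf peak at -17.1 kb: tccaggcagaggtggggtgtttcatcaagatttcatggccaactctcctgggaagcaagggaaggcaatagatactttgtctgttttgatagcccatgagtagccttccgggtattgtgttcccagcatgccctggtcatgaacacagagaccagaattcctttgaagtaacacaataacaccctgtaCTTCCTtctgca
Vwf start peak at 6.09 kb: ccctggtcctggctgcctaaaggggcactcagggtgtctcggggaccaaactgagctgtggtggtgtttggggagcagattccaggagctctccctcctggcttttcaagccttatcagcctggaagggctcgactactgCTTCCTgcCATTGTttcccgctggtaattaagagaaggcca

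**Figure D2:**
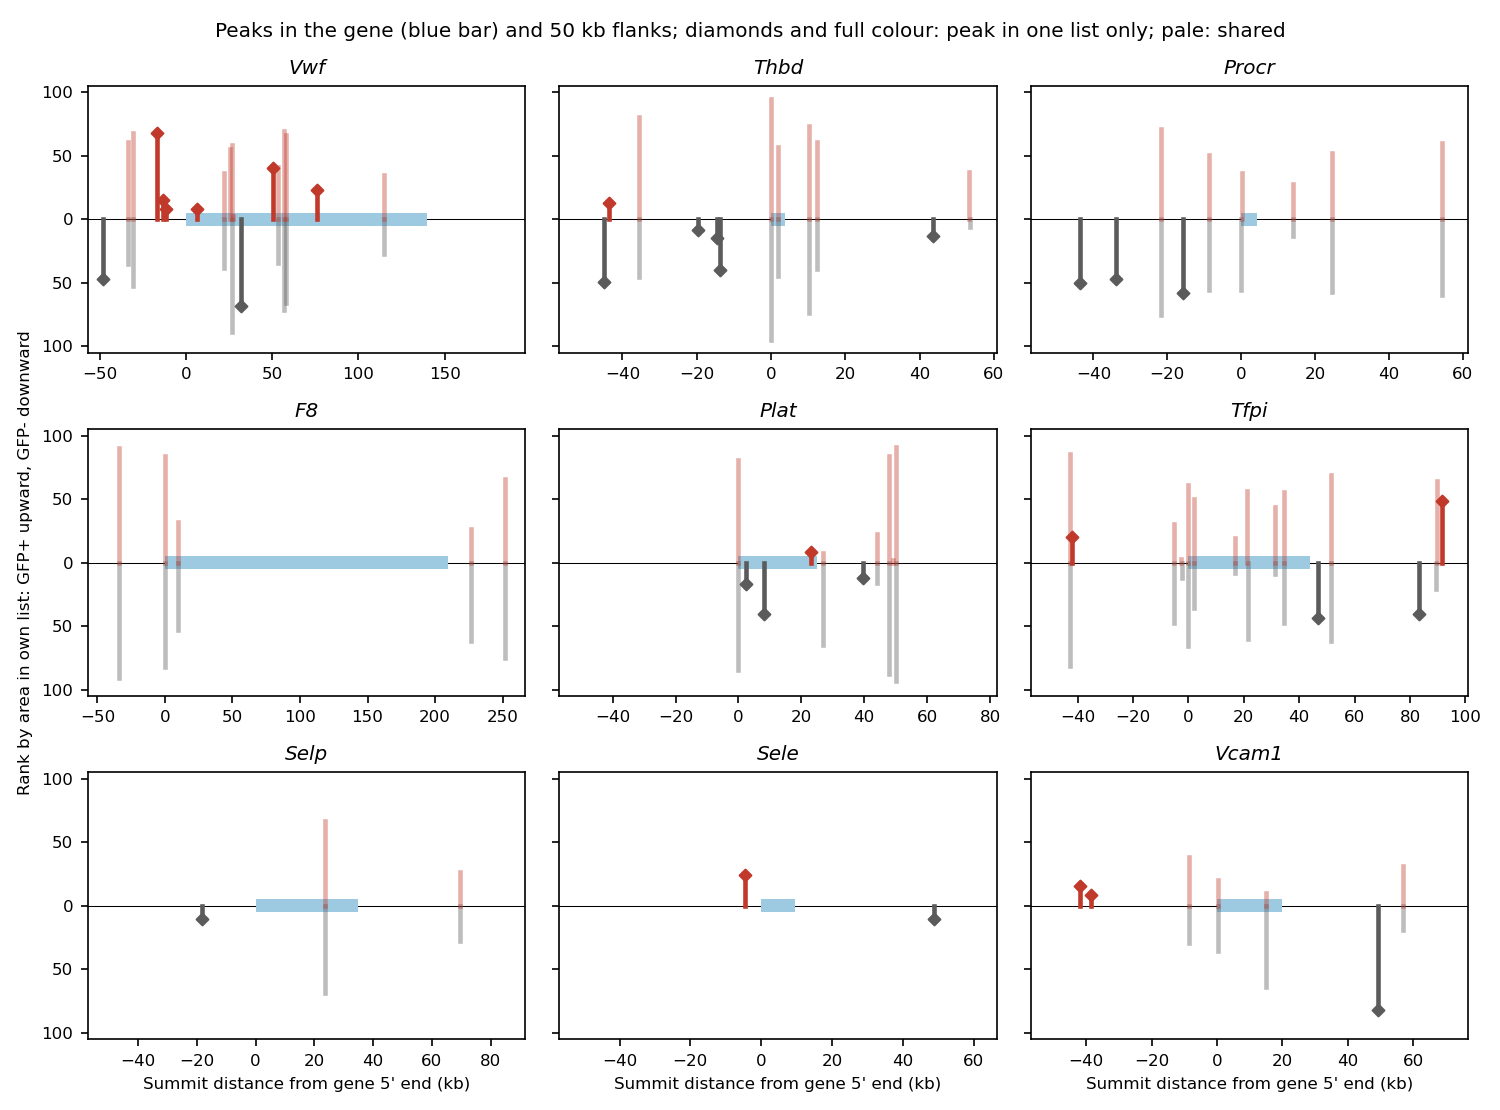
Peaks in the 9 loci, with the distance of the peak summit from the 5′ end of the gene in kb on the x axis and the rank by area on the y axis, GFP+ upward and GFP- downward. The blue bar is the gene, pale lines are shared peaks, and full lines with diamonds are peaks of a single list, of which Vwf has 6 in GFP+ and 2 in GFP-.

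Thbd encodes thrombomodulin, which binds thrombin and turns it to protein C. The gene (ENSMUSG00000074743.4, chr2:148404466-148408188, minus strand) has a single exon and 1 transcript start. Its start peak was the highest of the 9 genes in both lists, at 94.9 in GFP- and 95.0 in GFP+, or place 4002 of 78912 and place 3223 of 65008. It measured 2889 bp in GFP- and 2746 bp in GFP+. A separate peak in the exon, at 1.91 kb in GFP- and 1.86 kb in GFP+, ranked 44.8 and 57.1. The 200 bases before the start, where this highest start peak lies, are given on the minus strand (chr2:148408189-148408388), with a KLF word (CCNCNCCC) in capitals. KLF factors induce thrombomodulin under blood flow, but this word lay in the same window of 47.6% of all protein-coding genes. Whether a KLF factor binds this match was not tested.
Thbd upstream of the start: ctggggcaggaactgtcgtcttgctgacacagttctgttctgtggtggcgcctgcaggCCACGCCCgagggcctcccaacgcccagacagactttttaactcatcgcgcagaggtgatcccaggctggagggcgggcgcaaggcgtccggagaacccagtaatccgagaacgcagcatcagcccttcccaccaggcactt

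Around Thbd the highest-ranked regions included neighbouring genes. The start of Cd93, a surface glycoprotein of endothelium and myeloid cells, lay at -35.5 kb and had a GFP- peak of 748 bp at a rank of 45.5 and a GFP+ peak of 1669 bp at 80.9. At the somatostatin receptor gene Sstr4, 12.3 kb from the Thbd start on the far side of the gene, the ranks were 39.2 in GFP- and 61.0 in GFP+. A region at 53.4 kb ranked 6.05 and 37.2. The highest flank peak of the GFP- list, at 10.2 kb, ranked 73.8, and its GFP+ partner ranked 73.1. Against these 3 regions higher in GFP+, 2 GFP- only regions were lower, at -13.7 kb with a rank of 39.6 and at -45.1 kb with a rank of 49.0. In all, 5 of 11 GFP- peaks and 1 of 7 GFP+ peaks of the locus were found in a single list. That GFP+ only peak lay at -43.6 kb with a rank of 12.5, and the 200 bp around its summit (chr2:148451651-148451850, minus strand) held none of the words searched.
Thbd peak at -43.6 kb: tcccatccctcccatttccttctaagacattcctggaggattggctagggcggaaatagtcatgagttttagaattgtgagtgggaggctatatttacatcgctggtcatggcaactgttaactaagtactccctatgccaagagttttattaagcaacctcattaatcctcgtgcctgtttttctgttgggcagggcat

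Procr encodes the endothelial protein C receptor, which presents protein C to the thrombin and thrombomodulin complex. The gene (ENSMUSG00000027611.12, chr2:155751117-155755471, plus strand) had the largest difference between the lists at its start. The start peak ranked 56.1 in GFP- and 36.7 in GFP+, a difference of -19.4 points, just inside the limit of 20. By the p-value of the summit the difference was -20.4, and by area per bp it was -44.1, so this gene counts as lower in GFP+ under these measures. The GFP+ peak was the longer of the pair, at 595 bp against 476 bp.

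No Procr peak was GFP+ only, and none of its 9 regions was higher in GFP+ by over 20 points. The 3 GFP- only peaks all lay upstream. Those at -43.7 kb and -33.7 kb, with ranks of 50.2 and 46.7, lay inside Edem2, and the third, at -15.8 kb, ranked 58.3. The highest flank peak of the locus was shared and lay at the start of Edem2, at ranks of 75.05 in GFP- and 71.3 in GFP+. Procr had no intron peak.

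F8 encodes coagulation factor VIII, a cofactor for the activation of factor X that endothelial cells release. The gene (ENSMUSG00000031196.13, chrX:75172715-75382615, minus strand) lies on the X chromosome, of which male mice carry a single copy, and the ranks were not corrected for this. Its start peak ranked 82.0 in GFP- and 84.1 in GFP+, and the same peak overlaps the start of Fundc2, so the lists cannot assign it to F8 alone. In the 200 bases before 2 of its 4 annotated starts lay 9 KLF words, the most at any start of the 9 genes. Overlapping matches were counted separately, and the 2 starts lie close together, so their windows hold largely the same bases.

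All 10 peaks of the F8 locus, 5 in each list, were shared. Over 209.9 kb of gene, the sole peak outside the start was intronic, at 9.64 kb, and ranked 53.4 in GFP- and 32.1 in GFP+. A flank region inside Smim9, about 226.9 kb from the F8 start, ranked 61.5 and 26.7. Both were lower in GFP+ by over 20 points, and no F8 region was higher. The highest flank peak, at the joint starts of Brcc3, Cmc4 and Mtcp1, ranked 90.6 in GFP- and 90.4 in GFP+.

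Plat encodes tissue plasminogen activator, the protease that converts plasminogen to plasmin. The gene (ENSMUSG00000031538.6, chr8:22757727-22782844, plus strand) had a start peak of 1398 bp at a rank of 84.7 in GFP- and of 955 bp at 80.9 in GFP+. Within the gene the lists shared no other peak. GFP- only intron peaks at 2.40 kb and 8.16 kb ranked 17.0 and 40.2, and a GFP+ only intron peak at 23.0 kb ranked 8.28. Downstream of the gene, a region at 26.8 kb had ranks of 65.1 in GFP- and 7.49 in GFP+, the largest gap of any region of the 9 loci with a peak in both lists. The highest peak of the locus lay at 50.2 kb, next to Ap3m2, at ranks of 92.9 and 90.6. The GFP+ only intron peak is shown on the plus strand (chr8:22780663-22780862) with its ETS word.
Plat peak at 23.0 kb: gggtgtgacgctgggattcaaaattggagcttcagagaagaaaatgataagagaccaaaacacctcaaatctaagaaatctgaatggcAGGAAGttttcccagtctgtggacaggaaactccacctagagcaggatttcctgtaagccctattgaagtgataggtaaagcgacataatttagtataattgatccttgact

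Tfpi encodes tissue factor pathway inhibitor, which blocks factor Xa and the complex of tissue factor with factor VIIa. The gene (ENSMUSG00000027082.15, chr2:84432855-84476775, minus strand) has 10 annotated transcript starts, of which those of Tfpi-202, Tfpi-203 and Tfpi-204 shared the only start peak. It ranked 65.7 in GFP- and 60.7 in GFP+. Inside the gene all peaks were shared. An intron region at 31.3 kb ranked 8.90 in GFP- and 43.5 in GFP+, and the highest intron peak, at 21.4 kb, ranked 60.6 and 56.7. The highest flank peak lay upstream at -42.9 kb, with ranks of 81.6 and 85.4.

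Downstream of Tfpi lies Calcrl, the receptor gene for adrenomedullin and CGRP, and its part of the flank held both directions. A region at 89.6 kb in Calcrl ranked 21.1 in GFP- and 64.0 in GFP+, and a GFP+ only peak at 91.6 kb ranked 48.5. GFP- only peaks at 83.3 kb, in Calcrl, and at 46.9 kb, between the genes, ranked 40.4 and 43.3. The start of Calcrl itself, at 51.5 kb, ranked 62.2 in GFP- and 69.2 in GFP+. Of 15 regions of the Tfpi locus, 3 were higher in GFP+ by over 20 points and 2 were lower. The GFP+ only peak at 91.6 kb, the second highest of its kind in the 9 loci, is shown on the minus strand (chr2:84385069-84385268), and the other Tfpi peak of that kind, at -42.1 kb, ranked 19.9. Both held a SOX word.
Tfpi peak at 91.6 kb: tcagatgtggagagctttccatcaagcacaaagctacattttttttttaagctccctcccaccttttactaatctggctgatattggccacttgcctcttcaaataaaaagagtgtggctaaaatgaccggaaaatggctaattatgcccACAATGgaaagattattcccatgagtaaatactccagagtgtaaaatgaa

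Selp and Sele, the genes of P-selectin and E-selectin on which leukocytes roll, lie close to each other on chromosome 1. Neither had a peak at any transcript start in either list. Selp (ENSMUSG00000026580.16, chr1:164115264-164150026, plus strand) had an intron peak at 23.6 kb that was shared and ranked 69.1 in GFP- and 66.6 in GFP+. Its other shared peak lay in the coagulation factor gene F5, at 69.5 kb, with ranks of 27.4 and 26.3. None of the 3 Selp regions differed by over 20 points. Sele (ENSMUSG00000026582.6, chr1:164048234-164057677, plus strand) had no peak within the gene and no shared peak. Its locus held a GFP+ only peak at -4.57 kb (chr1:164043499-164043885), at a rank of 23.9, and a GFP- only peak at 48.8 kb, at a rank of 10.7, which falls in the flanks of both genes.

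The 200 bases before the starts of Selp (chr1:164115064-164115263) and Sele (chr1:164048034-164048233), neither of which held a peak, are shown with the Sele peak at -4.57 kb (chr1:164043568-164043767), all on the plus strand. Each upstream window held an ETS word and an AP-1 word (TGANTCA), in capitals, and the Sele peak an ETS word. An exact match to the NF-kB consensus was in neither upstream window, and near matches were not searched.
Selp upstream of the start: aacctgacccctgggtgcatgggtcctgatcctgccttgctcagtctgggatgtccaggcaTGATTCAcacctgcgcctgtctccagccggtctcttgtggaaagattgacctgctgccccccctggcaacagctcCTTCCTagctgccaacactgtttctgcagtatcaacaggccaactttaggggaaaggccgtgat
Sele upstream of the start: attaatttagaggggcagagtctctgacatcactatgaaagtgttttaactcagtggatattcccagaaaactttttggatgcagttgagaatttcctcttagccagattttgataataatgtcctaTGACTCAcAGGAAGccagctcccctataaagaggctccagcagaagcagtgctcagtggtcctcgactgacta
Sele peak at -4.57 kb: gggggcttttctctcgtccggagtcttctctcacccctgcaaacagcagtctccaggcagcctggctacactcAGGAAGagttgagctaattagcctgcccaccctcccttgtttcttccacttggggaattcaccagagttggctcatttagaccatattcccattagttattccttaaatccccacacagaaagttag

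Vcam1 encodes vascular cell adhesion molecule 1, the endothelial ligand of the leukocyte integrin that contains Itga4, and is also made by stromal and mural cells. The gene (ENSMUSG00000027962.14, chr3:116109949-116129688, minus strand) had the lowest start rank of the 7 genes in both lists, at 35.4 in GFP- and 19.99 in GFP+, a difference of -15.4. An NF-kB consensus lay in the 200 bases before the transcript start that the peaks of both lists cover. Its single intron peak, at 15.0 kb, ranked 64.1 in GFP- and 10.3 in GFP+. Downstream, at 49.3 kb (chr3:116080130-116081426), a GFP- only peak of 1297 bp ranked 81.7, the highest peak of a single list in all 9 loci. The Vcam1 flanks also held 2 GFP+ only peaks, at -38.6 kb and -42.0 kb, but they ranked 8.78 and 15.7. A shared upstream region at -8.53 kb ranked 29.1 in GFP- and 38.3 in GFP+. Windows of the 49.3 kb peak (chr3:116080292-116080491) and of the peak at -42.0 kb (chr3:116171613-116171812) are shown on the minus strand to set the highest GFP- only and GFP+ only peaks of this gene side by side. In the 49.3 kb window a SOX word and an AP-1 word overlap, and the other window held none of the words.
Vcam1 peak at 49.3 kb: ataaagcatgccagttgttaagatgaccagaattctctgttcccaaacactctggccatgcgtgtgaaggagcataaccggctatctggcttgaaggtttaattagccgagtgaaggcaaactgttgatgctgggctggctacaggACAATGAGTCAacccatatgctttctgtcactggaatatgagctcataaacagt
Vcam1 peak at -42.0 kb: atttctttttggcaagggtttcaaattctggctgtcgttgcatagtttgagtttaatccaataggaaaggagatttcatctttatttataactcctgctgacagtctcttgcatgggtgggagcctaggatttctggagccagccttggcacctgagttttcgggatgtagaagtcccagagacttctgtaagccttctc

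Across the 9 loci the GFP- list held 64 peaks and the GFP+ list 63, counting the peak shared by the flanks of Selp and Sele once. Of the GFP- peaks, 17 (26.6%) were GFP- only, beside 28.2% of the GFP- peaks around all protein-coding genes. Of the GFP+ peaks, 13 (20.6%) were GFP+ only, beside 12.7%. Vwf supplied 6 of these 13, and without it the GFP+ only share was 7 of 47 peaks, or 14.9%. With an overlap of 50% of both peaks required, the single-list shares were 22 of 63 GFP+ peaks (34.9%) and 23 of 64 GFP- peaks (35.9%). No share over all protein-coding genes is given for this overlap. The GFP+ only peaks were small, with a median rank of 15.7 against 17.4 for all GFP+ only peaks, whereas the GFP- only peaks had a median of 40.4 against 25.5. Of the 13 GFP+ only peaks 1 reached a rank of 50, that of Vwf at -17.1 kb. Of the 17 GFP- only peaks 4 did, at Vwf, Procr (2) and Vcam1. The share of all single-list peaks reaching this rank was not counted, so these counts are descriptions.

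Most of the single-list peaks lay outside the genes, as did most peaks of the loci, 40 of 64 in GFP- and 36 of 63 in GFP+. Of the 17 GFP- only peaks, 14 lay in flanks and 3 in introns, and of the 13 GFP+ only peaks, 9 lay in flanks, 3 in introns and 1 at a start. None of the 5 exon peaks in either list was limited to that list. Flanks reach into other genes: 14 of 40 GFP- flank peaks and 10 of 36 GFP+ flank peaks lay inside another protein-coding gene, so a peak in a flank need not belong to the gene examined. Peaks were also counted only where the nearest protein-coding gene was 1 of the 9. Then 6 of 34 GFP- peaks (17.6%) and 11 of 41 GFP+ peaks (26.8%) were found in a single list. The order of the shares thus turned, beside 28.2% and 12.7% around all protein-coding genes. Among the 11 were all 6 GFP+ only peaks of Vwf, and these shares were not recomputed without that gene.

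After merging overlapping peaks of both lists, the 9 loci held 77 regions, of which 47 had a peak in both lists, 17 in GFP- only and 13 in GFP+ only. Higher in GFP+ by over 20 points were 11 regions (14.3%), beside 7.34% around all protein-coding genes, and lower were 16 (20.8%), beside 22.4%. The 11 higher regions belonged to 4 loci, namely Vwf with 4, Thbd and Tfpi with 3 each and Sele with 1. Without Vwf, 7 of 61 regions (11.5%) were higher. For 45 of the 77 regions the nearest protein-coding gene was 1 of the 9 genes, and of these 5 (11.1%) were higher and 9 lower. The median difference was -1.09 points over the 77 regions and -3.52 over all 75400 regions.

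**Figure D3:**
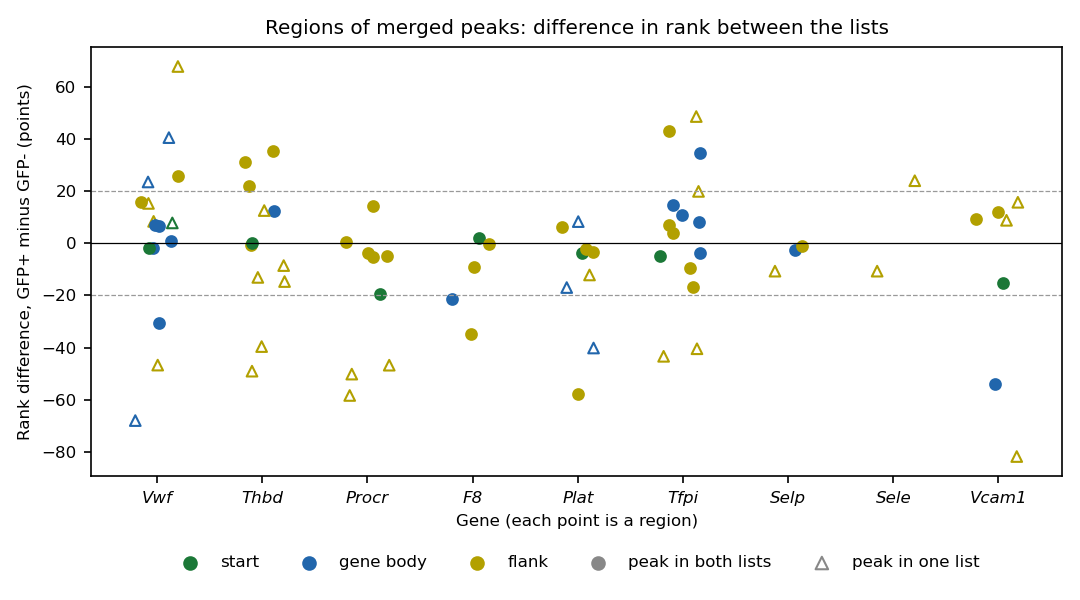
Difference in rank, GFP+ minus GFP-, of each merged region by locus, with dashed lines at 20 and -20 points. Filled circles are regions with a peak in both lists and open triangles those with a peak in a single list, coloured by place. Points above 20 occur at Vwf (4), Thbd (3), Tfpi (3) and Sele (1), and the lowest point is the Vcam1 region at 49.3 kb.

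Words of transcription factor families were counted on both strands in 200 bp around the summits of peaks. An ETS word lay in 5 of the 13 GFP+ only peaks (38.5%), beside 42.8% of all GFP+ only peaks. A SOX word lay in 5 of the 13 (38.5%), beside 16.1%, at Vwf (2), Tfpi (2) and Vcam1 (1). A GATA word (AGATAA) lay in 1 of the 13, beside 10.75% of all GFP+ only peaks, and an NF-kB consensus in 1, beside 5.48%. No KLF or AP-1 word was found in the 13 peaks, beside 24.1% and 8.68%. Shared peaks of the 9 loci held an ETS word in 18 of 50 GFP+ peaks (36.0%, beside 26.4%) and 19 of 47 GFP- peaks (40.4%, beside 26.1%), and a GATA word in 7 of the 50 (14.0%, beside 8.59%) and 9 of the 47 (19.1%, beside 8.52%). Shared peaks of either list overlap those of the other, so the GFP+ and GFP- counts are not independent of each other. Other words were less frequent in shared peaks of the 9 loci than in all shared peaks: in GFP- a SOX word lay in 2 of the 47 (4.26%, beside 8.05%), a KLF word in 11 (23.4%, beside 31.9%) and an AP-1 word in 1 (2.13%, beside 7.89%), and in GFP+ these words lay in 3, 12 and 2 of the 50, beside 8.36%, 31.9% and 7.56% of all shared peaks. Of the 17 GFP- only peaks, 5 held an AP-1 word (29.4%, beside 14.8%) and 3 an ETS word (17.6%, beside 28.0%). In the 200 bases before the start of all 21755 protein-coding genes, the ETS word occurred in 24.4%, SOX in 7.35%, GATA in 6.81%, KLF in 47.6%, AP-1 in 4.79% and the NF-kB consensus in 6.69%. Words this short occur often by chance, counts of 1 to 5 peaks change with a single peak, and a match is not a bound site.

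Other genes of the same pathways placed the 9 genes in context. Of 20 further genes of coagulation and fibrinolysis that endothelium can express, 14 had a start peak in GFP- and 16 in GFP+. By over 20 points, 1 of these 16 was higher in GFP+ and 5 were lower, beside 1.94% and 7.33% of all genes with a start peak, and the median difference over the 16 with a start peak was -3.58, near that of the 7 genes. The higher gene was Mmrn2, an endothelial matrix glycoprotein, with no start peak in GFP- and a rank of 43.6 in GFP+. The lower genes with the largest differences were F2rl1, a protease-activated receptor, which ranked 78.3 in GFP- and 42.5 in GFP+, Tfpi2, a serine protease inhibitor, at 56.3 and 24.0, and Serpine2, which inhibits thrombin, at 63.6 and 31.4.

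Of 16 further genes of leukocyte adhesion and passage, 14 had a start peak in GFP- and 15 in GFP+, 3 were higher by over 20 points and none lower, with a median of 1.998 points. The 3 were genes of junctions and the endothelial surface that are also endothelial markers: Cdh5 ranked 17.96 in GFP- and 85.3 in GFP+, Pecam1 had no start peak in GFP- and ranked 66.9 in GFP+, and Icam2 ranked 15.0 and 81.5. Icam1, which like Vcam1 is induced by cytokines, ranked 83.8 in GFP- and 73.2 in GFP+. Ackr1, a marker of venules, had no start peak in either list.

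Genes of other cell types were counted alike. Of 17 plasma factors of the liver, such as prothrombin and the fibrinogen chains, Proc alone had a start peak, at ranks of 23.9 in GFP- and 13.3 in GFP+. Of 13 partners on leukocytes and platelets, some of which, such as Cd44 and Itgb3, endothelium also expresses, 5 had a start peak in GFP- and 4 in GFP+, and none was higher in GFP+ by over 20 points. The 2 that were lower were Itga4, a subunit of the integrin that binds VCAM-1, which ranked 59.9 in GFP- and had no start peak in GFP+, and the hyaluronan receptor Cd44, at 76.4 and 39.2. Selplg, the ligand of P-selectin, had none in either list.

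**Figure D4:**
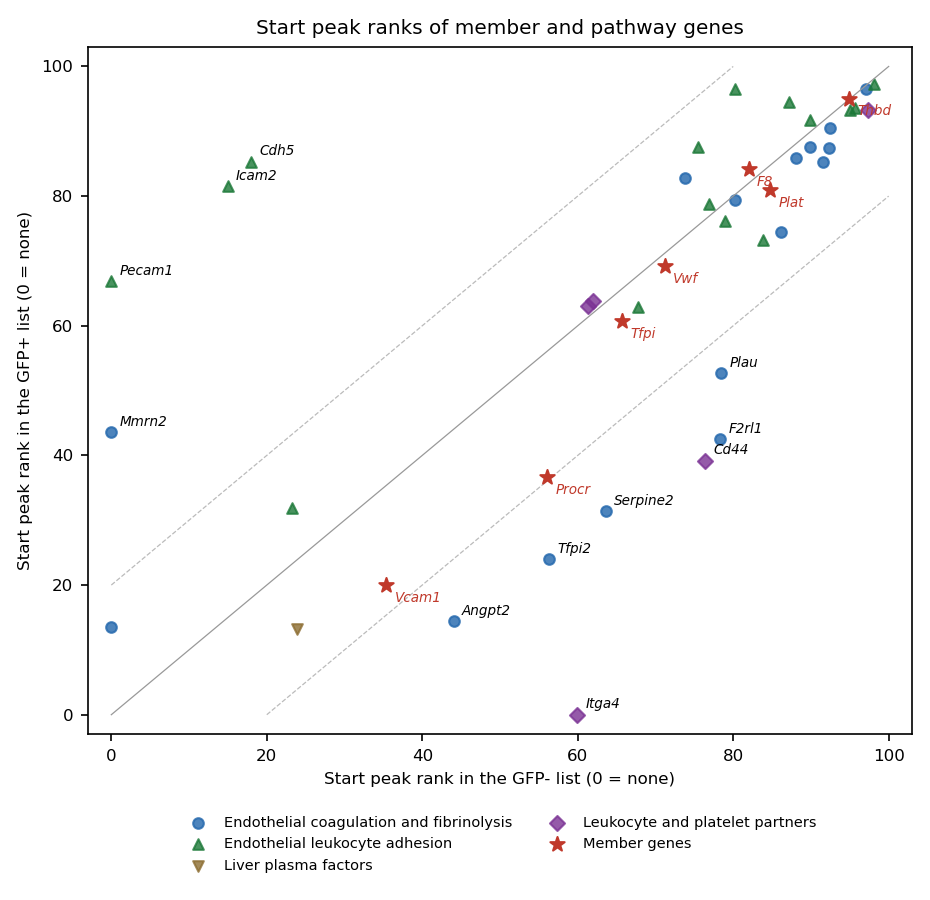
Rank of the start peak in the GFP- list (x axis) against that in the GFP+ list (y axis) for the member genes (stars) and the 4 pathway lists, leaving out genes with no start peak in either list. The solid line marks equal ranks and the dashed lines a difference of 20 points, outside which genes are named, such as Cdh5 at 17.96 and 85.3. All 7 stars lie between the dashed lines.

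In the order of start ranks within the GFP+ list, Thbd (95.0) came first, followed by F8 (84.1), Plat (80.9), Vwf (69.2), Tfpi (60.7), Procr (36.7) and Vcam1 (19.99), with Selp and Sele without a peak. In the GFP- list Plat (84.7) and F8 (82.0) changed places and the order was otherwise the same. Vwf stands in this order, and in the distances below, by its peak at the processed transcript Vwf-206. At its protein-coding starts Vwf had a peak in the GFP+ list alone, at a rank of 7.77. With no spread between libraries at hand, whether neighbours in this order differ could not be judged. Among the 37 genes of the 4 lists with a start peak, the pair of ranks nearest to that of Thbd was Cd99l2, at a distance of 1.68 points over the 2 lists, that of Tfpi and of Vwf was Cd34, at 2.94 and 7.28 points, and that of Plat and of F8 was Pros1, at 4.76 and 5.12 points. Procr lay nearest to Serpine2, at 9.25 points, and Vcam1 to Angpt2, at 10.3 points.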

How the data were processed

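ATAC-Seq libraries were made from sorted GFP- and GFP+ heart nuclei, 2 per group, with 100 to 50000 nuclei per reaction. Per the labels and the study's methods, the authors' reads were trimmed and then mapped to mm10 by Bowtie2, Picard took out duplicates, all libraries were downsampled, and Genrich called peaks from both replicates of a group jointly. The submitters' processing notes name Bowtie2 2.3.5.1 and SAMtools 1.19, and the methods name another Bowtie2 version. The deposited peak lists give per peak an area (signal summed over its length), the −log10 p-value of its summit and a score with an upper limit, at which 83.9% of the GFP- list and 82.0% of the GFP+ list lie. No peak had an area under 200. Downsampling evens the libraries' depth, but the lists still differ in length, so areas were compared only as ranks within a list.

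Starts and gene records came from GENCODE release M21 on GRCm38, and sequences from RefSeq GRCm38.p6. A gene's start rank is that of its highest start peak, over all annotated transcript starts, within 250 bp. Peaks in a locus were classed by summit as exon, intron or flank after those at starts. Shares over all protein-coding genes were computed alike. The overlap, rank and word steps were tested on simulated data. Python 3.11.15, pandas 2.3.3, numpy 2.4.6, pysam 0.24.0 and matplotlib 3.10.9 were used.

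All 9 genes, the gene lists, the words and the rules were chosen with earlier results of these data known. Named were all 9 genes, each gene's highest-ranked start, intron and flank peaks, single-list peaks at a rank of 50 or more, up to 3 genes per pathway list and direction, and the genes nearest in rank. Other single-list peaks, neighbouring genes and regions, Icam1, Ackr1, Selplg, and the sequence windows other than those of each gene's highest GFP+ only peak were chosen after their values were seen. The values of some genes of the lists are not reported here. Alternatives changed the start definition, window, overlap, threshold, flank and ranking measure.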

Additional observations from a re-analysis of the deposited data

How the results depend on the processing

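Under the alternatives, 14 recomputed summary values moved little (counts within 1.5 times, medians within 5 points), 32 start differences of single genes stayed within 20 points, 3 start differences passed the limit of 20 points, 6 counts moved by over 1.5 times and 1 median changed sign. The median start difference of the 7 genes became 0.52 points when peaks were ranked by area per bp, where Plat (9.16) and Tfpi (8.88) also changed sign. The GFP+ only count of 13 became 22 when overlap had to cover 50% of both peaks, 8 in the upper 75% of each list, 8 with flanks of 20 kb and 7 without Vwf, a setting added after seeing the data. The GFP- only count of 17 became 10 with flanks of 20 kb and 6 where the nearest protein-coding gene had to be 1 of the 9. The causes of the sign change and of the changes in counts were not tested. The settings behind the changed counts alter which peaks are counted or what counts as shared. Vcam1 was lower in GFP+ by over 20 points, at -35.4, in the upper 75% of each list, where its GFP+ start peak is left out, and Procr at -20.4 by summit p-value and -44.1 by area per bp. No paired analysis was possible because the lists hold no value per replicate, and leaving out a replicate was not run for the same reason. The lists give no reads per peak, so a gene without a peak is not shown to be closed.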
